A study of Mus musculus with 4 samples.

Results

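The transcripts of 10 genes that take glucose into the cell and break it down were followed in ZHBTc4 cells: the transporter genes Slc2a1 and Slc2a3, the hexokinase genes Hk1 and Hk2, the phosphofructokinase genes Pfkl and Pfkp, and Pgk1, Pkm, Ldha and Pdk1. They were found by name among the spots of each array that are not controls, with Pkm under its older name Pkm2, and they took up 32 spots per array. These hold 23 of 41174 probes and 10 of 27670 genes. All 10 genes had a probe that passed the filter on dim signals, which kept 21419 genes in the tests. ZHBTc4 is an established mouse embryonic stem cell line in which both own copies of Pou5f1 are disrupted and Oct4, the transcription factor it encodes, comes from a transgene that doxycycline shuts off. All groups carry that genotype, so every sample tests a single line. The dox+TCP cells received 2 µg doxycycline with TCP, an agent the labels do not spell out, and RNA was taken at 48 h. The dox cells received 2 µg doxycycline alone for 48 h. The reference was ZHBTc4 cells for which the labels name no treatment. Per the labels the cells had been moved from irradiated embryonic fibroblasts, the feeder layer, to gelatin for 2 passages. Treated cells were read in Cy5 and the reference in Cy3 on each of 4 two-colour arrays, 2 biological replicates per treated group by the labels, with no dye swap. Doxycycline itself and the loss of Oct4 cannot be told apart, since every treated sample had both.

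Glucose enters cells through facilitative transporters and is trapped by hexokinases as glucose 6-phosphate. Phosphofructokinase then sets the pace of the pathway, phosphoglycerate kinase and pyruvate kinase form ATP, lactate dehydrogenase turns pyruvate into lactate, and pyruvate dehydrogenase kinases hold pyruvate back from the mitochondria. Pluripotent stem cells are known for a high glycolytic flux, the placental trophoblast passes glucose to the embryo through such transporters, and most of these genes are textbook targets of the hypoxia-inducible factors.

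The members did not move as a block after 48 h of doxycycline. In dox+TCP cells Slc2a1, Slc2a3 and Hk1 rose against the reference, by 3.52-fold, 4.26-fold and 3.35-fold, and Hk2, Pfkl, Ldha and Pkm fell, by 1.64-fold to 1.95-fold. In dox cells Slc2a1, Slc2a3 and Hk1 rose by 5.09-fold, 5.11-fold and 2.55-fold, and Hk2, Pfkl, Ldha and Pkm fell, by 1.36-fold to 1.83-fold. In each comparison 3 of 10 members were called higher, 4 lower and 3 not called by limma at an adjusted p under 0.05, where 15.4% of all genes were called for dox+TCP and 14.6% for dox. Of all genes, 7.31% were called higher and 8.08% lower for dox+TCP, and 6.32% and 8.28% for dox. The median log2 ratio of the 10 members was -0.32 for dox+TCP and -0.45 for dox, against 0.033 and -0.0011 over all genes. Both comparisons are made against the ZHBTc4 reference, so they are given side by side and their likeness is not read as a result.

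The calls rest on which arrays enter the fit. Leaving out dox+TCP replicate 1 or dox+TCP replicate 2 ended every call in both comparisons, with 0 genes and 0 members called by limma, while 3353 and 3599 genes for dox+TCP, and 5142 for dox, still had an unadjusted p under 0.05; 7 members for dox+TCP and 9 for dox were among them. The dox ratios are the same in those fits, Slc2a3 at 2.35 for example, and the spread is then estimated from the dox arrays alone. Without either dox array limma called 5935 genes and 8 members for dox+TCP, and for dox 4124 genes and 5 members without replicate 1 and 2066 and 6 without replicate 2. With all 4 arrays and the local backgrounds as read it called 0 genes in both comparisons. The falls also rest on the scaling. With each array centred on its median in place of loess, the median of all genes stood at 0.18 in both comparisons and that of the brightest 10% of genes at 0.52 for dox+TCP and 0.62 for dox. Of the 10 members, 7 lie among those brightest genes. Under that centring 4 members were called higher (Slc2a1, Slc2a3, Hk1 and Pgk1) and 0 lower in each comparison. Of all 21419 genes, 4001 were then called higher and 1106 lower for dox+TCP, and 4884 and 1139 for dox. Among all called genes 78.3% were higher for dox+TCP and 81.1% for dox, against 47.5% and 43.3% with loess.

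**Figure D1:**
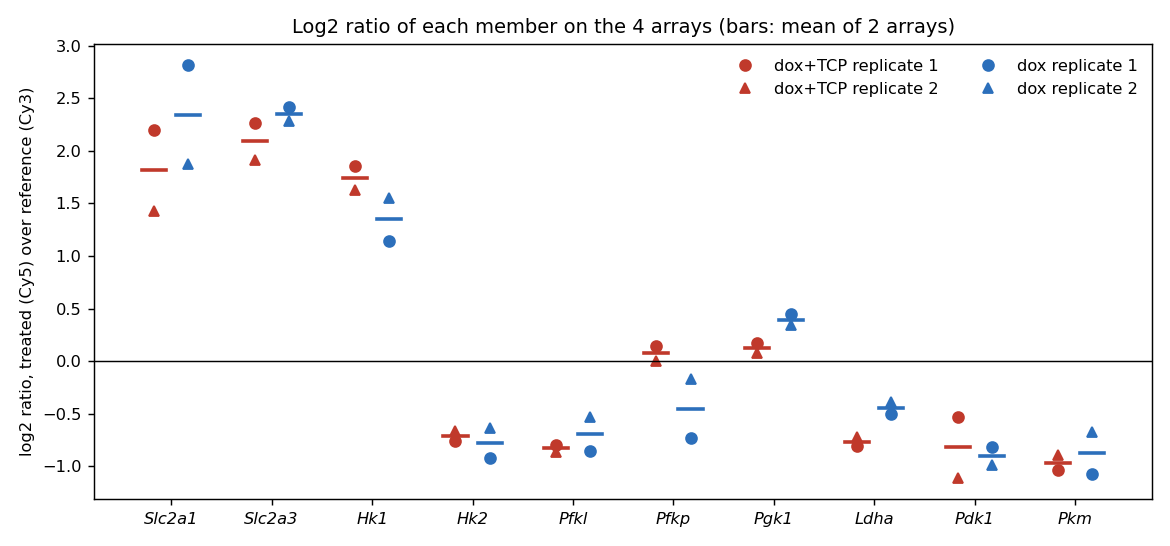
Log2 ratio of treated cells (Cy5) over reference cells (Cy3) for the brightest probe of each gene on the 4 arrays; circles are replicate 1, triangles replicate 2, red dox+TCP, blue dox, and bars the mean of 2 arrays. Slc2a1, Slc2a3 and Hk1 lie between 1.14 and 2.82 on every array, while Hk2, Pfkl, Ldha, Pdk1 and Pkm lie below 0 on every array, and under median centring Ldha turned to 0.38 in dox cells.

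Facts of the arrays that bear on these values are few. Per the file headers both replicate 1 arrays shared a slide and each replicate 2 array had its own. Dox+TCP replicate 2 was scanned on day 2 and the other arrays on day 1. Cy5 medians ran between 213 and 249 over local backgrounds of 53.5 to 60, 68.8% to 78.1% of spots were well above background in either channel, and 0 were saturated. Pou5f1 fell, with log2 ratios of -3.29 in dox+TCP cells and -3.50 in dox cells (limma adjusted p = 0.0146 and 0.0105), and 8 and 12 of 12 pluripotency markers fell (8 and 9 under median centring). Kdm1a, which encodes the histone demethylase LSD1 that the series is about, stood at 0.036 ± 0.087 in dox+TCP cells and 0.25 ± 0.087 in dox cells and did not pass (limma adjusted p = 0.812 and 0.152). Of 13 trophoblast markers 0 passed in either comparison, with medians of 0.97 and 1.32, and under median centring 3 and 5 were called higher. The reference was not alike on all arrays: on replicate 2 arrays 12 of the 13 trophoblast markers had the higher Cy3 level (median gap 1.45 on the log2 scale), and their summed Cy3 level was 36360 and 229900 on dox+TCP replicates 1 and 2 and 33890 and 210900 on dox replicates 1 and 2. In Cy5 that sum was 324300 and 355700 in dox+TCP cells and 483400 and 389500 in dox cells. Of 14 feeder fibroblast markers 1 rose and 1 fell with dox+TCP and 2 fell with dox, at summed Cy5 levels of 5187 to 8712 in dox+TCP cells, 5249 and 5330 in dox cells and Cy3 levels of 5200 to 10270 in the reference. Of 10 primitive endoderm markers 0 passed in either comparison, with summed levels of 19790 and 28590 in dox+TCP cells, 13070 and 22800 in dox cells and 17040 to 19440 in the reference, and under median centring 2 were called higher with dox+TCP, and 3 higher and 2 lower with dox. Among them Sox7 was not well above background in Cy5 on any array. The part of these markers in the members' ratios was not tested. In bulk RNA, fewer cells of a type and less RNA per cell cannot be told apart.

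The promoters of 2 genes that rose and 2 that fell are printed here because the hypoxia-inducible factors are known to bind the letters ACGTG and GCGTG. Of the 10 genes 9 matched the RefSeq promoter table of GRCm38.p6, with 13 start sites, and Slc2a3 did not. Each line gives the 250 bases before a start site, 5′ to 3′ on the gene's own strand, with each match to either motif, on either strand, in capitals; for Hk1 the second of 2 listed start sites is shown and for Ldha the first of 2, each the one with more matches. The Hk1 window not shown holds 0 matches and that of Ldha 1.
Slc2a1 chr4:119108495-119108744 (+ strand): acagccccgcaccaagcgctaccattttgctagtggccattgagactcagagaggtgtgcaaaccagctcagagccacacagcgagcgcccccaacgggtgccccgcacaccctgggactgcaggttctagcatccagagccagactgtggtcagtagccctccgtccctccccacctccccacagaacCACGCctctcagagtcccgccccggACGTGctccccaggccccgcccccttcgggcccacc
Hk1 chr10:62340422-62340671 (- strand): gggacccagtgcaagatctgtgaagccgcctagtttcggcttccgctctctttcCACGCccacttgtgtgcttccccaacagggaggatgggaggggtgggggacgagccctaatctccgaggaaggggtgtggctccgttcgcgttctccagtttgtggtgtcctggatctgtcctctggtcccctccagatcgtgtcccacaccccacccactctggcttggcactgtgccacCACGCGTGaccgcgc
Hk2 chr6:82774455-82774704 (- strand): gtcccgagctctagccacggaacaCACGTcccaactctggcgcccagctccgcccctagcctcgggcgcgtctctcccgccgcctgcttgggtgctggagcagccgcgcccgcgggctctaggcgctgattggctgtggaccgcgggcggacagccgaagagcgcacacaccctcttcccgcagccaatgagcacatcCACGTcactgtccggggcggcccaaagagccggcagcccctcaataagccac
Ldha chr7:46845554-46845803 (+ strand): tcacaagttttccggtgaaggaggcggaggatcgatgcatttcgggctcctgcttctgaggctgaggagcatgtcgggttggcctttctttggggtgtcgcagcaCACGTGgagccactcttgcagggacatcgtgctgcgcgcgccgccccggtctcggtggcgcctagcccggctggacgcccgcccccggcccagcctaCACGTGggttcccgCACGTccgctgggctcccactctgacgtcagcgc
Slc2a1 holds ACGTG 36 bases and GCGTG 61 bases before its start. The Hk1 window holds GCGTG 3 times, at 196, 15 and 12 bases, the last pair overlapping on opposite strands. Hk2 holds ACGTG 2 times, at 226 and 52 bases. Ldha holds 5 matches to ACGTG; 4 of them come from 2 copies of the palindrome CACGTG, which counts on both strands. The letters are present in the windows of genes of both directions.

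Over both strands, ACGTG was present in 5 of the 13 windows and in 16.6% of the 32851 windows of that length in the table. GCGTG was present in 6 of 13 windows and 28.2% of all, and either of them in 10 of 13 windows and 38.6% of all. All 9 matched genes had 1 or the other in at least 1 window. CACGTG, which contains ACGTG, was found in the Ldha window alone among the members and in 6.02% of all windows. These are counts of letters and show no binding.

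Slc2a1 encodes GLUT1, the transporter of basal glucose uptake in most cells. Its only probe, at chr4:118513698-118513757 (mm7, + strand), gave log2 ratios of 2.20 and 1.43 on the dox+TCP arrays and 2.82 and 1.87 on the dox arrays. All 4 ratios are high, the replicate 1 array is the higher in each group, and the groups overlap. The normalized log2 level was 16.40 and 16.62 in dox+TCP cells and 16.73 and 16.30 in dox cells, against 14.20 and 15.19 in the reference of the dox+TCP arrays and 13.91 and 14.42 in that of the dox arrays. The treated channels differ by less than the reference channels do. The reference was brighter on the replicate 2 arrays by 0.75, a larger gap than the median size of 0.217 over all genes, while the treated channels differed by -0.11. Slc2a1 rose by 1.82 ± 0.32 in dox+TCP cells and by 2.35 ± 0.32 in dox cells (log2 ratio ± SE, n = 2 arrays each; limma adjusted p = 0.0436 and 0.0302), and the part of the reference's trophoblast markers in it was not tested.

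Slc2a3 encodes GLUT3, a transporter of high glucose affinity known from neurons, trophoblast and early embryos. Its brightest probe, at chr6:122764878-122764937 (- strand), had log2 ratios of 2.26 and 1.92 in dox+TCP cells and 2.42 and 2.29 in dox cells. These are high and close together, with both dox+TCP values below both dox values. Levels in Cy5 were 16.74 and 16.41 in dox+TCP cells and 17.08 and 16.71 in dox cells, and in the reference between 14.43 and 14.66 on all 4 arrays. Over this level reference Slc2a3 rose by 2.09 ± 0.12 in dox+TCP cells and 2.35 ± 0.12 in dox cells (limma adjusted p = 0.0165 and 0.0138). Its ratio stood above that of 99.7% of genes for dox+TCP and 99.9% for dox. A dimmer probe, at chr6:122774576-122774635, averaged 0.85 in dox+TCP cells and 0.91 in dox cells, and a probe that the files place at chr17:81748170-81748230 averaged -0.036 and 0.074. With the scanner's own ratio the dimmer chr6 probe stood at 2.32 and 1.67 on the dox+TCP arrays and 2.33 and 1.56 on the dox arrays. Its raw Cy3 signals were 50.3 to 86.2, so the offset of 50 added in processing compresses its ratios. The mean over the gene's probes takes in both the dimmer chr6 probe and the chr17 probe. By that mean Slc2a3 stood at 0.97 for dox+TCP and 1.11 for dox, and remained called.

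Between the transporters the order changed from array to array. The ratio of Slc2a1 minus that of Slc2a3 was -0.063 and -0.49 on the dox+TCP arrays and 0.40 and -0.41 on the dox arrays, so no order between them exceeded the spread.

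Hk1 encodes hexokinase 1, the form that most adult tissues use. Its brightest probe, at chr10:61787906-61787965 (- strand), gave log2 ratios of 1.86 and 1.63 with dox+TCP and 1.14 and 1.56 with dox. All are high, and both dox+TCP values lie above both dox values, the lowest being dox replicate 1. Levels were 14.18 and 14.23 in dox+TCP cells, 13.42 and 14.29 in dox cells and 12.27 to 12.74 in the reference. Hk1 rose by 1.74 ± 0.14 in dox+TCP cells and by 1.35 ± 0.14 in dox cells (limma adjusted p = 0.0177 and 0.0215).

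Hk1 is the member with most probes, 6, and they did not read alike. On the minus strand a lower coordinate is nearer the 3′ end. The 4 probes between 61787906 and 61794480 on chromosome 10 averaged 0.94 to 1.74 with dox+TCP and 0.79 to 1.35 with dox. The other 2, at chr10:61834191-61834250 and chr10:61877109-61877168, averaged 0.28 and 0.079 with dox+TCP and 0.15 with dox at either one. Their raw Cy5 signals were 91.4 to 147 over the 4 arrays, against local background medians of 53.5 to 60, so they are dim and ratios there are compressed by the offset of 50. With the scanner's own ratio the probe at chr10:61794421-61794480 stood at 1.87 and 1.16 with dox+TCP and 1.22 and 1.74 with dox. By that ratio the brightest probe stood at 1.93 and 1.70 with dox+TCP and 1.20 and 1.71 with dox. The gap between these 2 probes thus depends on the processing. The scanner's ratio at chr10:61834191-61834250 was 0.79 and 0.49 with dox+TCP and 0.14 and 0.83 with dox. At chr10:61877109-61877168 it was -0.13 and 0.46 with dox+TCP and 0.19 and 0.52 with dox. Both dim probes thus stayed below the brightest on every array by that ratio too. Which exons the 6 probes read was not analysed here.

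Hk2 encodes hexokinase 2, the inducible form of muscle and of many tumours and cultured cells. At chr6:82750613-82750672 (- strand) its log2 ratios were -0.76 and -0.67 in dox+TCP cells and -0.92 and -0.64 in dox cells. All 4 were negative and the groups overlapped. Its level was 14.37 and 13.70 in dox+TCP cells and 14.27 and 14.08 in dox cells, and in the reference 15.14 and 14.37 on the dox+TCP arrays and 15.19 and 14.71 on the dox arrays. Both channels were dimmer on replicate 2 arrays, by 0.43 in Cy5 and 0.62 in Cy3. Hk2 fell, at -0.72 ± 0.11 in dox+TCP cells and -0.78 ± 0.11 in dox cells (limma adjusted p = 0.0334 and 0.0304), but it stood at -0.16 and -0.056 under median centring, where neither was called. With the scanner's own ratio the call for dox+TCP was lost as well (limma adjusted p = 0.0571).

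The 2 hexokinases separated on every array. Hk1 minus Hk2 was 2.62 and 2.29 with dox+TCP and 2.07 and 2.19 with dox, a difference of log2 ratios within an array, which a shift common to both genes leaves as it is.

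Phosphofructokinase is built of subunits from the genes Pfkl, named for liver, Pfkp, named for platelets, and Pfkm, named for muscle. Pfkl, at chr10:77642785-77642844 (- strand), had log2 ratios of -0.80 and -0.86 in dox+TCP cells and -0.85 and -0.53 in dox cells. All are negative, and the groups overlap because dox replicate 1 lies between the dox+TCP values. Its level was 11.21 and 10.96 in dox+TCP cells and 11.13 and 11.63 in dox cells, against 11.83 to 12.16 in the reference. Pfkl fell, at -0.83 ± 0.11 in dox+TCP cells and -0.69 ± 0.11 in dox cells (limma adjusted p = 0.0285 and 0.0384), and stood at -0.45 and -0.13 under median centring without a call. For dox the call was also lost without dox replicate 1, at -0.53 (limma adjusted p = 0.0647), and with the scanner's own ratio (limma adjusted p = 0.0589).

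Pfkp was the member whose sign differed between the treatments. Its brightest probe, which spans chr13:6475782-6477936 (- strand), gave log2 ratios of 0.15 and 0.0045 with dox+TCP and -0.73 and -0.17 with dox. The dox+TCP values lie near 0 and above both dox values, which lie apart from each other. Means were 0.076 ± 0.17 for dox+TCP and -0.45 ± 0.17 for dox, and neither passed (limma adjusted p = 0.791 and 0.166); under median centring the dox value turned to 0.063. A second probe, at chr13:6482360-6482419, averaged -0.20 with dox+TCP and -0.87 with dox, and the last, at chr13:6473188-6473247, 0.027 and -0.11. Pfkp minus Pfkl was 0.94 and 0.87 on the dox+TCP arrays and 0.12 and 0.36 on the dox arrays. Pfkm, the muscle subunit, stood at 0.57 ± 0.17 and 0.52 ± 0.17 and did not pass (limma adjusted p = 0.112 and 0.137).

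Pgk1 encodes phosphoglycerate kinase, the first enzyme of the pathway to give ATP, and is widely used as a stable transcript. Its main probe, at chrX:101530787-101530846 (+ strand), is printed on 10 spots. Log2 ratios were 0.17 and 0.078 in dox+TCP cells and 0.45 and 0.34 in dox cells, all small and positive, with both dox+TCP values below both dox values. Levels were 15.73 and 15.51 in dox+TCP cells, 15.96 and 15.90 in dox cells and 15.43 to 15.56 in the reference. Pgk1 did not pass at 0.12 ± 0.083 for dox+TCP or 0.39 ± 0.083 for dox (limma adjusted p = 0.389 and 0.0603). A second probe that overlaps it, at chrX:101530809-101530868, averaged 0.17 and 0.41. With the mean of its probes Pgk1 was called higher for dox (limma adjusted p = 0.0459). Under median centring it was called higher in both comparisons, at 0.79 and 1.21, and with the scanner's own ratio the dox+TCP value turned to -0.023.

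Pkm encodes the muscle-type pyruvate kinase, whose splice forms serve adult muscle and proliferating cells; which form the probes read was not analysed here. At chr9:59706027-59706086 (+ strand) its log2 ratios were -1.04 and -0.89 with dox+TCP and -1.08 and -0.67 with dox. All are negative and the groups overlap. Levels were 14.39 and 14.19 in dox+TCP cells, 14.39 and 14.65 in dox cells and 15.08 to 15.46 in the reference. Pkm fell, at -0.97 ± 0.13 in dox+TCP cells and -0.87 ± 0.13 in dox cells (limma adjusted p = 0.0289 and 0.0344), the largest fall among the called members in both comparisons, and stood at -0.37 and -0.12 under median centring without a call. The second probe, at chr9:59705879-59705938, averaged -0.98 and -0.86.

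Ldha encodes the A chain of lactate dehydrogenase, the chain that favours lactate formation. At chr7:43031720-43031779 (+ strand) its log2 ratios were -0.81 and -0.72 in dox+TCP cells and -0.50 and -0.39 in dox cells. All are negative, and both dox+TCP values lie below both dox values. Levels were 15.35 and 15.41 in dox+TCP cells, 15.60 and 15.69 in dox cells and 16.08 to 16.17 in the reference. Ldha fell, at -0.77 ± 0.084 in dox+TCP cells and -0.45 ± 0.084 in dox cells (limma adjusted p = 0.0221 and 0.0491); under median centring it stood at -0.086 for dox+TCP and turned to 0.38 for dox, and for dox the call was also lost without either dox array and without background subtraction (limma adjusted p = 0.0533). A second probe, which spans chr7:43030257-43031186, read lower still, -1.04 with dox+TCP and -0.87 with dox.

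Pdk1 encodes a kinase that switches off pyruvate dehydrogenase. At chr2:71745341-71745400 (+ strand) its log2 ratios were -0.53 and -1.12 with dox+TCP and -0.81 and -0.99 with dox. The dox+TCP replicates lie farther apart than for any other called or uncalled member but Slc2a1, and they enclose both dox values. Levels were 10.46 and 9.79 in dox+TCP cells, 10.24 and 9.95 in dox cells and 10.91 to 11.05 in the reference. Pdk1 did not pass, at -0.82 ± 0.17 for dox+TCP and -0.90 ± 0.17 for dox (limma adjusted p = 0.0588 and 0.0512). With the replicate block it was called in both (limma adjusted p = 0.0275 and 0.0247), and for dox also without background subtraction (limma adjusted p = 0.0499). Under median centring it stood at -0.46 and -0.39 without a call. Its second probe, at chr2:71747473-71747532, averaged -0.37 and -0.83.

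**Figure D2:**
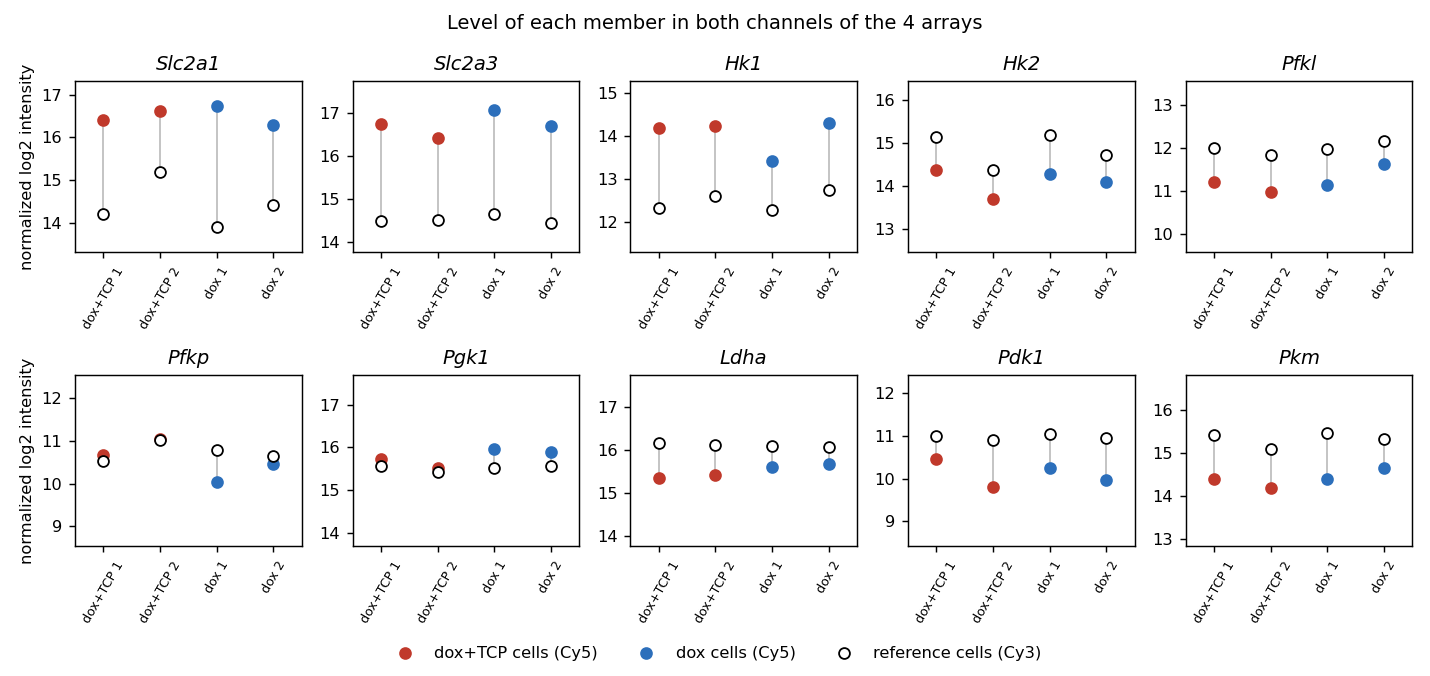
Normalized log2 intensity of the brightest probe of each gene in both channels of the 4 arrays, filled circles treated cells (Cy5; red dox+TCP, blue dox) and open circles reference cells (Cy3), joined within an array; every panel spans the same range of log2 units. For Slc2a1 the reference runs from 13.91 to 15.19 while treated cells lie between 16.30 and 16.73, and for Pgk1 the reference stays between 15.43 and 15.56.

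**Figure D3:**
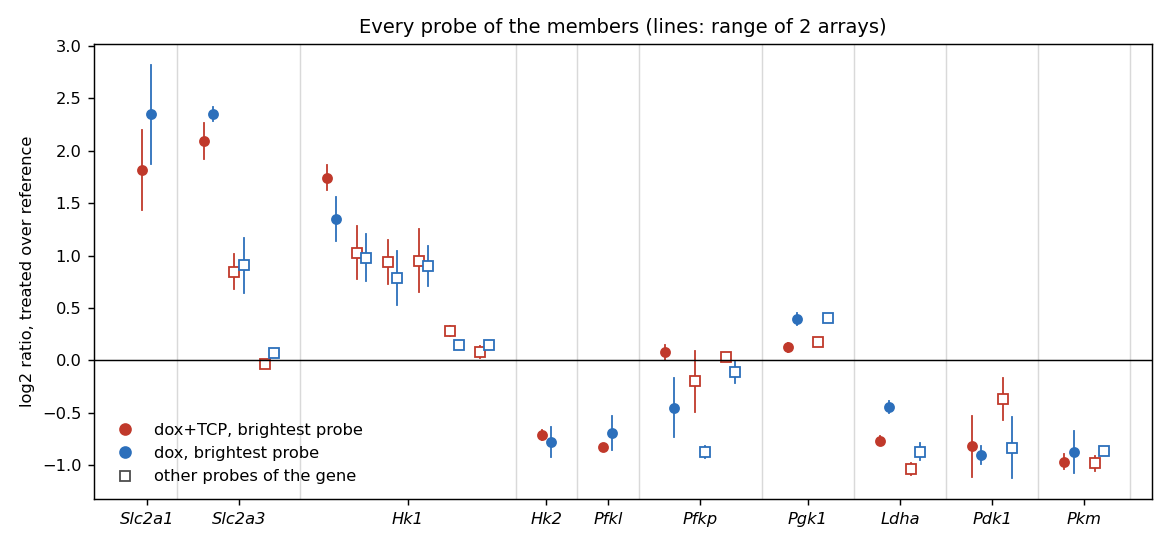
Mean log2 ratio of treated over reference cells for each of the 23 probes of the members, with lines for the range of 2 arrays; filled circles are the brightest probe of a gene, open squares its other probes, red dox+TCP and blue dox. Probes of Ldha, Pdk1 and Pkm lie on the same side of 0 as the brightest one, while the other probes of Slc2a3 and Hk1 have smaller ratios than the brightest.

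TCP was then compared with doxycycline alone, the comparison in which dye effects cancel. No member passed: limma called 0 of 10 members and 0 of 21419 genes (0%), with 943 genes (4.4%) and 0 members at an unadjusted p under 0.05, and 0 genes called under any alternative tried. The members' differences, dox+TCP minus dox on the log2 scale, ran from -0.53 ± 0.46 for Slc2a1 to 0.53 ± 0.24 for Pfkp, with a median of -0.11, against 0.040 over all genes (limma adjusted p = 0.996 for every member). In 5 of 10 members the 2 groups' ratios did not overlap, where the same held for 33% of all genes. Hk1 and Pfkp were higher in both dox+TCP replicates, and Slc2a3, Pgk1 and Ldha lower in both.

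The smallest unadjusted p among the members was that of Ldha. It differed by -0.32 ± 0.12, with a 95% interval of -0.66 to 0.016 (limma unadjusted p = 0.0570, adjusted p = 0.996). Pgk1 differed by -0.27 ± 0.12, with an interval of -0.61 to 0.064, and Hk1 by 0.39 ± 0.20, with an interval of -0.18 to 0.97. For Slc2a1 the interval ran from -1.83 to 0.77, the widest of the members. The intervals of Hk2, from -0.37 to 0.50, and Pfkl, from -0.59 to 0.32, were the narrowest among the members with overlapping groups.

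Around the members, 24 other genes of glucose transport and glycolysis were tested. With dox+TCP 1 rose and 3 fell, and with dox 2 rose and 3 fell, at medians of 0.10 and 0.058, shares of calls close to the 15.4% and 14.6% of all genes. Under median centring 8 were called higher and 2 lower in each comparison, at medians of 0.36 and 0.30, where 5107 of all genes were called for dox+TCP and 6023 for dox. Slc2a12, a further glucose transporter, rose by 1.25 with dox+TCP and 1.99 with dox (limma adjusted p = 0.0235 and 0.0153). The fructose transporter gene Slc2a5 fell, at -1.30 and -1.46 (limma adjusted p = 0.0329 and 0.0289). Of the enolase genes, Eno3, the muscle form, fell, at -1.79 and -2.04 (limma adjusted p = 0.0169 and 0.0149). Eno1, the form of most tissues, fell, at -1.13 and -0.90 (limma adjusted p = 0.0267 and 0.0383), but was at -0.74 and -0.33 with no call under median centring. Eno2, the neuronal form, stood at 0.59 and 0.61 and did not pass. Tpi1, triosephosphate isomerase, rose by 0.66 with dox and stood at 0.24 with dox+TCP, where it did not pass.

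Of 7 genes that tune the pathway, 4 rose with dox+TCP and 3 with dox, and 0 fell, at medians of 0.98 and 0.59. Of all genes 7.31% were called higher for dox+TCP and 6.32% for dox. Under median centring 4 of the 7 were called higher in each comparison and 0 lower. That centring called 4001 of all 21419 genes higher for dox+TCP and 4884 for dox. Txnip, which restrains glucose uptake and promotes the removal of GLUT1 from the cell surface, had log2 ratios of 2.15 and 2.08 with dox+TCP and 1.67 and 2.12 with dox, high on all arrays and overlapping between the groups. It rose by 2.12 and 1.89 (limma adjusted p = 0.0165 and 0.0153). Pfkfb3, whose product makes the strongest allosteric activator of phosphofructokinase, rose by 1.80 and 1.17 (limma adjusted p = 0.0159 and 0.0150), and Pfkfb1, of the same family, by 1.23 and 0.98. Arrdc4, a relative of Txnip, rose by 0.98 with dox+TCP and stood at 0.59 with dox.

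Of 19 genes of lactate and pyruvate handling, 3 rose and 1 fell in each comparison, at medians of 0.21 for dox+TCP and 0.058 for dox. Of all genes 15.4% were called for dox+TCP and 14.6% for dox. Under median centring 5 of the 19 were called higher with dox+TCP and 8 with dox, and 1 lower in each, at medians of 0.41 and 0.64. That centring called 5107 of all 21419 genes for dox+TCP and 6023 for dox. Ldhb, the other chain of lactate dehydrogenase, had log2 ratios of 2.16 and 1.99 in dox+TCP cells and 0.97 and 1.45 in dox cells, with loess the reverse sign of Ldha on every array. It rose by 2.08 and 1.21 (limma adjusted p = 0.0169 and 0.0263). Slc16a3, the lactate exporter MCT4, fell, at -1.72 and -1.73 (limma adjusted p = 0.0311 and 0.0316). Pdk4, of the same kinase family as Pdk1, rose by 2.23 with dox+TCP (limma adjusted p = 0.0207) and stood at 0.78 with dox without passing. Dlat, a subunit of pyruvate dehydrogenase, rose by 0.62 and 0.70, and Mpc2, a subunit of the mitochondrial pyruvate carrier, rose by 0.54 with dox and stood at 0.44 with dox+TCP.

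In the tricarboxylic acid cycle 2 of 22 genes rose with dox+TCP and 4 with dox, and 0 fell, at medians of 0.25 and 0.22, beside 15.4% and 14.6% of all genes called. Under median centring 14 and 16 of the 22 were called higher, at medians of 0.80 and 0.94. That centring called 4001 of all 21419 genes higher for dox+TCP and 4884 for dox. Idh2, mitochondrial isocitrate dehydrogenase, rose by 1.49 and 1.07 and Suclg2, a succinate-CoA ligase subunit, by 0.71 and 0.80. Ogdh and Dlst, subunits of the oxoglutarate dehydrogenase complex, rose by 1.01 and 0.67 with dox. Of 9 glycogen genes 3 rose with dox+TCP and 2 with dox, and 0 fell, at medians of 0.67 and 0.75; under median centring 5 and 7 were called higher and 0 lower. Pgm1, which links glucose 6-phosphate to glycogen, rose by 1.14 and 1.38. Gyg, which primes glycogen, rose by 1.60 with dox+TCP, and Pgm2 rose by 1.05 with dox.

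Of 7 gluconeogenesis genes 2 rose and 1 fell in each comparison, and under median centring 3 were called higher and 1 lower. Of all genes 15.4% were called for dox+TCP and 14.6% for dox with loess. Under median centring 5107 of 21419 were called for dox+TCP and 6023 for dox. Slc37a4, the glucose 6-phosphate carrier of the endoplasmic reticulum, rose by 1.59 with dox+TCP and 1.21 with dox, and G6pc3, a glucose 6-phosphatase, by 0.91 and 0.58. Fbp1, fructose bisphosphatase, fell, at -1.01 and -1.72. Of 8 pentose phosphate genes 0 passed in either comparison by limma, at medians of -0.11 and -0.070, and under median centring 2 were called higher with dox+TCP and 3 with dox.

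Of the 28 other hypoxia-response genes, 4 rose and 6 fell with dox+TCP and 3 rose and 4 fell with dox, at medians of 0.081 and 0.042. Of all genes 15.4% were called for dox+TCP and 14.6% for dox. The balance turned under median centring, with 7 called higher and 4 lower with dox+TCP and 11 higher and 3 lower with dox. The list's medians were then 0.36 and 0.33. The same turn was seen over all called genes. Of those, 78.3% were higher for dox+TCP and 81.1% for dox, against 47.5% and 43.3% with loess. Vegfa, the vascular growth factor, rose by 1.73 and 1.05, Bnip3, a mitophagy receptor, by 1.50 and 1.68, and P4ha2, a collagen prolyl hydroxylase, by 1.22 and 1.09. Kdm3a, a histone demethylase, fell, at -1.55 and -2.04, as did Epas1, which encodes HIF-2α, at -1.52 and -1.65, and Plod2, a collagen lysyl hydroxylase, at -1.08 and -1.34. Ddit4, an inhibitor of mTOR signalling, rose by 0.65 with dox+TCP, and Ankrd37, a target of the hypoxia-inducible factors, fell, at -0.92 with dox+TCP; with dox they stood at 0.48 and -0.44 and did not pass. Hif1a itself stood at -0.092 ± 0.37 with dox+TCP and -0.40 ± 0.37 with dox and did not pass, with dox replicates of 0.30 and -1.11.

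Of 12 genes known to regulate glycolytic genes in stem cells, 5 fell with dox+TCP and 3 with dox and 0 rose. Of all genes 8.08% were called lower for dox+TCP and 8.28% for dox. The list's medians of -0.57 and -0.45 moved to -0.20 and 0.024 under median centring. There 0 of the 12 were called higher and 4 lower with dox+TCP, and 3 higher and 2 lower with dox. That centring called 1106 of all 21419 genes lower for dox+TCP and 1139 for dox, and 4001 and 4884 higher. Esrrb, an orphan nuclear receptor that is also among the pluripotency markers, fell, at -2.49 and -2.72. Lin28b, an RNA-binding protein, fell by 1.66 with dox+TCP and stood at -1.44 with dox. Myc had log2 ratios of -1.43 and -1.97 in dox+TCP cells and 0.42 and -0.53 in dox cells, low on both dox+TCP arrays and split in sign on the dox arrays. It fell by 1.70 with dox+TCP (limma adjusted p = 0.0412) and stood at -0.056 with dox (limma adjusted p = 0.923). Lin28a, a relative of Lin28b, fell, at -0.87 and -0.92 (limma adjusted p = 0.0242 and 0.0227), but was at -0.49 and -0.37 with no call under median centring. In these related lists, no called gene changed sign under median centring.

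**Figure D4:**
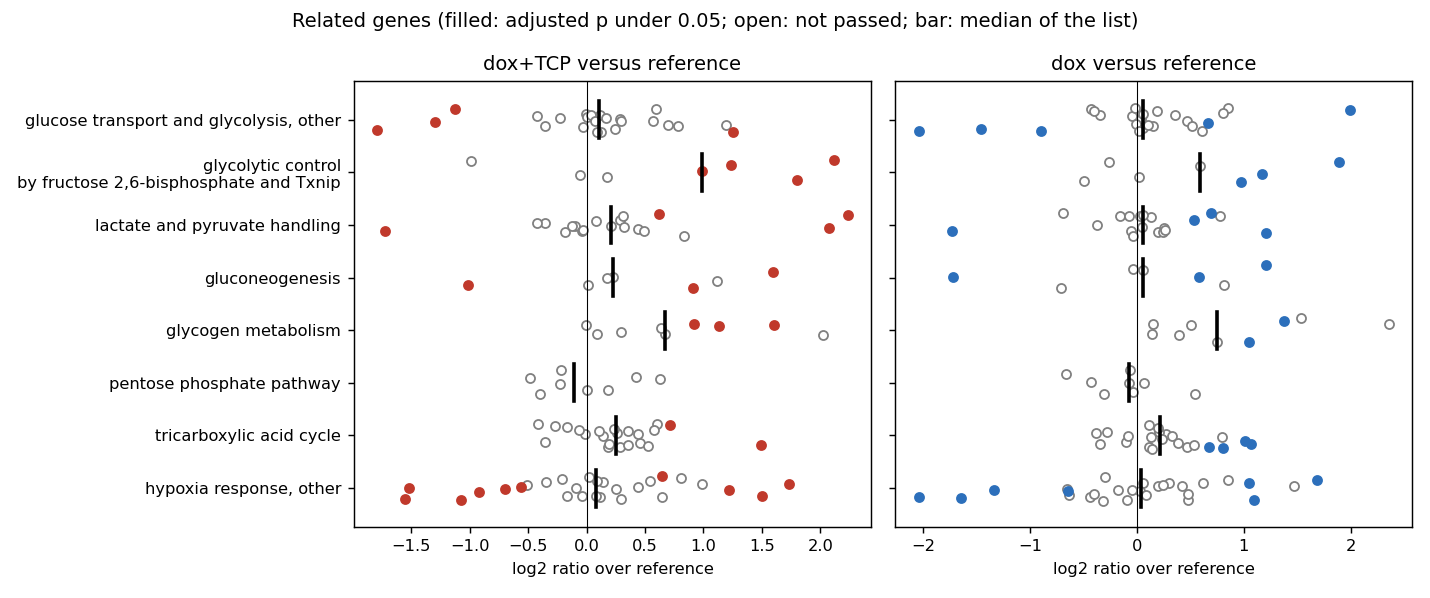
Log2 ratio over the reference for the genes of 8 related lists, dox+TCP on the left and dox on the right; filled points passed limma at an adjusted p under 0.05, open points did not, and bars are the list's median. The list with Txnip and the glycogen list have no called gene below 0. The other hypoxia-response genes hold called genes on both sides, 4 higher and 6 lower with dox+TCP under loess and 7 higher and 4 lower under median centring. Over all called genes with dox+TCP, 47.5% were higher under loess and 78.3% under median centring.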

How the data were processed

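RNA of 4 treated samples was hybridised against ZHBTc4 reference RNA; per the labels it was primed with oligo-dT. Spot and background intensities are those the authors deposited, unnormalized, from Agilent Feature Extraction 10.1.1.1 (per the file headers). That software also made the deposited log10 ratios, after background subtraction and a linear and lowess dye correction, per the file headers; the authors' deposited matrix matched them within 0.005, with column medians of 0, 0.0111, 0 and 0. Marks of 0 or 1 per spot were deposited too.

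With limma 3.58.1 in R 4.3.3, mean signals were corrected by normexp (offset 50) after local backgrounds over 2 times the median were replaced by it (11 to 110 spots per array and channel), then scaled by loess within arrays with the 1639 control spots at weight 0. Outlier spots, 119 to 176 per array, were set to missing, and spots of a probe averaged. Tested probes stood well above background in Cy5 on the 2 arrays of either group, or in Cy3 on all 4; a gene was its brightest tested probe. Symbols came from GRCm38.p6 by accession (22951 probes), symbol (6659) or synonym (3109), and 8455 kept the file's name. Probe positions are those of the files (mm7) and promoter positions those of GRCm38.p6; the builds were not mixed. One limma fit over 4 arrays (2 residual and 1.79 prior degrees of freedom) gave each group mean against 0 and their difference, with Benjamini-Hochberg adjustment over 21419 genes. The reference is the only control, and its own spread was not estimated apart from that of the ratios. Where its level differs between arrays, as for the trophoblast markers and Slc2a1, that enters the ratios and their SE. Levels are Aquantile-scaled log2 intensities. The fit was also run on simulated data with independent noise on each array. Those data lack deviations shared between arrays, so that run does not check the calls made here. The median SE was 0.114 for a group and 0.161 for a difference; the number of arrays limits the precision.

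The members and gene lists were chosen with earlier results of these data known. Besides the members and Pou5f1, genes named are up to 4 called each way per list and comparison; Pfkm, Eno2 and Hif1a, and the genes between the treated groups in the closing section, were named after their values were seen. Some genes that this rule takes from the lists are given only in the counts. Alternatives were other background, scaling, probe and block settings and leaving out each array.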

Additional observations from a re-analysis of the deposited data

Results flagged for a closer look

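Pfkp, the platelet-named phosphofructokinase subunit, stood out because its ratio had opposite signs in the treated groups on every array, 0.15 and 0.0045 in dox+TCP cells and -0.73 and -0.17 in dox cells. The difference, dox+TCP minus dox, was 0.53 ± 0.24 on the log2 scale and did not pass (limma unadjusted p = 0.0925, adjusted p = 0.996). It was 0.25 to 0.81 with 1 array left out, and 1 of the dox+TCP values lies next to 0. These are values of the brightest probe under loess. For dox+TCP and dox, the probe at chr13:6473188-6473247 averaged 0.027 and -0.11, again of opposite sign. The probe at chr13:6482360-6482419 averaged -0.20 and -0.87, and median centring of the brightest gave 0.44 and 0.063, each pair of the same sign.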

How the results depend on the processing

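Counts of called genes and the ratios both moved with the processing. Over all alternatives the dox ratio ran from 1.11 to 3.17 for Slc2a3, -0.92 to -0.056 for Hk2 and -0.67 to 0.38 for Ldha. With local backgrounds as read, limma called 0 genes and 0 members for dox+TCP and for dox (1965 and 1899 genes at an unadjusted p under 0.05). With scan day as a block it called 0 genes and 0 members in both (3602 and 5142 unadjusted). Scan day 2 held dox+TCP replicate 2 alone, so that block sets this array aside and rests the dox+TCP mean on replicate 1. It is therefore no check apart from leaving that array out. Each group fitted on its own arrays gave 5935 genes for dox+TCP, with Pdk1 called (adjusted p = 0.0476), and 0 genes and 0 members for dox (5142 unadjusted). Median centring gave 5107 genes and 4 members for dox+TCP and 6023 and 4 for dox. The replicate block gave 5144 genes for dox+TCP and 4873 for dox, and added Pdk1 in both (limma adjusted p = 0.0275 and 0.0247); same-numbered deviations from the group means correlated at 0.472 over 21356 genes, but the labels do not state a pairing. With 1 array left out, counts ran from 0 to 5935 genes and 0 to 8 members for dox+TCP and from 0 to 4124 and 0 to 6 for dox; 0 came without either dox+TCP array and 5935 without either dox array. Between dox+TCP and dox, every alternative that could be fitted called 0 genes. No background subtraction, no filter on dim probes, the mean of probes, the scanner's ratio, and limits of 5 and 10 times the background median (chosen after seeing the data) left 6 or 7 members called for dox+TCP and 6 to 8 for dox; the scanner's ratio ended the calls of Hk2 for dox+TCP and Pfkl for dox, no background subtraction ended that of Ldha and added Pdk1 for dox, and the mean of probes added Pgk1 for dox. Against the reference, signs turned for Ldha (0.38) and Pfkp (0.063) with dox under median centring, for Pgk1 (-0.023) with dox+TCP under the scanner's ratio and for Pfkp (-0.032) with dox+TCP under the mean of probes. Between the treated groups, small differences turned for Hk2 (-0.10 under median centring, -0.14 in Cy5 levels alone) and Pdk1 (-0.038 under the scanner's ratio, -0.077 under median centring), and with 1 array left out they ran from -0.079 to 0.21 for Hk2, -0.22 to 0.37 for Pdk1, -0.30 to 0.024 for Pfkl and -0.29 to 0.11 for Pkm. The cause was not tested. Slide as a random block was not run, since no correlation could be estimated from 4 arrays; the replicate 1 arrays share a slide. A left-out array leaves a lone sample that is assumed to vary like the other group.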

Other observations

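Between the treated groups, 13 of 136 genes in the related lists had an unadjusted p under 0.05 in limma, 9 higher and 4 lower with TCP, where 4.4% of all genes did; none passed adjustment (adjusted p = 0.996). They were picked after their values were seen. Fbp1, fructose bisphosphatase, was 0.70 ± 0.11 higher on the log2 scale in dox+TCP cells (limma unadjusted p = 0.00350), with ratios over the reference of -0.99 and -1.03 in dox+TCP cells and -1.74 and -1.69 in dox cells. Pfkfb3 was 0.63 ± 0.12 higher, with 1.83 and 1.78 in dox+TCP cells and 1.11 and 1.23 in dox cells. Pdk4 was 1.46 ± 0.32 higher, with 2.17 and 2.30 in dox+TCP cells and 0.37 and 1.19 in dox cells, and Ldhb 0.87 ± 0.21 higher. Myc differed by -1.64 ± 0.41. None of the members was among these genes.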
